A study of Mus musculus with 12 samples.

Results

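The genes described here make, bind and destroy retinoic acid. They were chosen as a list of 10 symbols by role: the retinal dehydrogenase genes Aldh1a1, Aldh1a2 and Aldh1a3 with their relative Aldh1a7, the retinol and retinal converting genes Rdh10 and Dhrs3, the degrading enzyme genes Cyp26a1 and Cyp26b1, and the binding protein genes Crabp1 and Crabp2. Whether the Aldh1a7 product makes retinoic acid was not tested. Each had 1 probe set with a single gene symbol, and together they are 10 of the 19938 genes that the arrays could name. RNA came from R1 cells, a mouse embryonic stem cell (ESC) line, and was hybridised to 12 Affymetrix mouse gene arrays, 1 per sample. Undifferentiated cells carried a scrambled control infection (2 arrays) or a knockdown of Smarcd1, a subunit of the BAF chromatin remodelling complex, called KD1 (2 arrays) or KD2 (2 arrays). These were grown on mitomycin-treated embryonic fibroblasts in medium with LIF, a cytokine that keeps ESCs undifferentiated. For differentiation LIF was withdrawn and 1 µM retinoic acid was added; scrambled cells (2 arrays) and KD1 cells (4 arrays) were collected after 4 days. The protocol speaks of clones, so KD1 and KD2 may each stand for few independent infections, and the titles call the replicates biological without saying what separated them. The p-values therefore cover the spread among these samples, which may be technical. Retinoic acid treated KD2 cells were not analysed here.

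Retinoic acid is made from retinol, a form of vitamin A, in 2 oxidation steps. RDH10 takes retinol to retinal and DHRS3 takes retinal back to retinol, and ALDH1A1, ALDH1A2 and ALDH1A3 oxidise retinal to the acid. CRABP1 and CRABP2 carry the acid inside the cell, where it binds the RAR receptors, which work as partners of the RXR receptors on DNA, and the CYP26 enzymes hydroxylate it for removal. Cyp26a1, Dhrs3 and Rarb are known to be switched on by retinoic acid, and adding the acid to ESCs is a standard way to start their differentiation.

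The promoter of Cyp26a1 is shown because it is a classical target of the receptors, and those of Aldh1a1 and Aldh1a7 because these neighbours on chromosome 19, with 0 protein-coding genes between them, resemble each other in sequence and gave different values in KD1. RefSeq promoter windows (GRCm38.p6, 250 bases before to 50 bases after a start) were found for 7 members, 10 windows in all. Aldh1a3, Rdh10 and Crabp2 had none. Receptor hexamers, one reading AGGTCA, one reading AGTTCA, one reading GGGTCA and one reading GGTTCA, were searched in any pairing on both strands as direct repeats with spacers of 1, 2 or 5 bases, the spacings that RAR and RXR pairs are known to bind. Only the Cyp26a1 window held one: a repeat with a spacer of 5 on the strand opposite to the gene, from position -32 to position -16 relative to the start (chr19:37697776-37697792). Of all 32817 windows, 0.098% held a repeat with this spacer and 0.588% one with any of the 3 spacers. The 250 bases before the Cyp26a1 start (chr19:37697558-37697807, plus strand) read as follows, with the hexamers in capitals as they appear on the gene's strand.
Cyp26a1: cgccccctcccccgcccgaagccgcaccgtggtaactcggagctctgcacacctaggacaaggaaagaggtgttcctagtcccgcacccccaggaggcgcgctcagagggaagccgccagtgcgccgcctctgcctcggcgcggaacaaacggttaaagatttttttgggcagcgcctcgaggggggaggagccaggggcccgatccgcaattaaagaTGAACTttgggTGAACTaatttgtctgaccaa
The second of the Aldh1a1 windows (250 bases shown, chr19:20601718-20601967, plus strand) and the Aldh1a7 window (chr19:20727557-20727806, minus strand) had 213 identical bases among 224 aligned, 95.1%. Of the 300 bases in each window, those facing a gap are not part of this share. Capitals mark the longest run shared by both windows, 65 bases from position -94 to position -30.
Aldh1a1: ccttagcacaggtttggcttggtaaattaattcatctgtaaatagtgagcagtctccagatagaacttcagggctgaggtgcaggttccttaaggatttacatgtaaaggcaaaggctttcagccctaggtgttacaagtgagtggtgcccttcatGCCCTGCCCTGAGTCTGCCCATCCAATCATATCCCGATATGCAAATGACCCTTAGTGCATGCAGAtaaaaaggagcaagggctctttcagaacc
Aldh1a7: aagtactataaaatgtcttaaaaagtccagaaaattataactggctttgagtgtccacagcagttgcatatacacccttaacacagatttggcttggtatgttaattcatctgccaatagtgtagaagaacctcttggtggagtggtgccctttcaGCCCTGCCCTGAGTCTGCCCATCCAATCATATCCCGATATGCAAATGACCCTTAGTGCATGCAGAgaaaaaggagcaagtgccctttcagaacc
A match is a description of the letters and not of binding, and a window without one says nothing of sites elsewhere.

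Values are log2 probe set summaries, so a difference of 1 is a doubling. Smarcd1 stood at 8.67 and 8.68 in scrambled ESCs, 7.75 and 7.78 in KD1, 8.84 and 8.64 in scrambled cells after retinoic acid, and 6.36 to 6.61 in KD1 after retinoic acid. The array labelled KD2 replicate 1 stood at 8.56, close to the scrambled arrays and against its label, while KD2 replicate 2 stood at 7.16. All 8 ESC markers lay above the filter on dim genes on every undifferentiated array, with a mean of 10.04 to 11.10, and that mean was 6.13 to 7.33 after retinoic acid. The 10 extraembryonic endoderm markers averaged 4.98 to 5.13 in scrambled ESCs, 6.06 to 6.08 in KD1 ESCs, 6.40 to 6.53 in scrambled cells after retinoic acid and 8.68 to 9.05 in KD1 after retinoic acid. The 10 fibroblast markers averaged 7.05 to 7.13 in scrambled ESCs, 5.88 to 6.82 in KD1 ESCs and 6.08 to 6.55 in KD2 ESCs. Their part in the members' differences between ESC groups was not tested. In these bulk samples fewer cells of a type and less RNA per cell cannot be told apart.

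In scrambled cells 8 of the 10 genes rose over 4 days of retinoic acid, by 2.16 to 4.00 on the log2 scale (limma, Benjamini-Hochberg adjusted p under 0.05 over all genes tested). These included genes of every role: 3 dehydrogenases, both retinol and retinal converting enzymes, both degrading enzymes and Crabp2. Crabp1 did not pass, and Aldh1a3 was too dim to be tested. The median change of the 9 tested was 3.51, against 0.06 for all 12988 genes tested, of which 22.4% rose. Of all changed genes 57.4% rose, or 69.5% after each array was centred on its median. Testing was limited to genes brighter than a cutoff, log2 4.46 to 4.63 depending on the array, on 2 or more arrays. Aldh1a1 and Aldh1a7 met it on retinoic acid arrays alone, so they could hardly have been tested without a difference. Cyp26a1 met it on all retinoic acid arrays but on only 1 ESC array, fewer than the 2 needed, so the same holds for it. The count of 8 includes all of these genes. Small groups often lay apart: 54.0% of all genes tested did not overlap between KD1 and scrambled cells after retinoic acid. Between KD1 and scrambled ESCs it was 52.7%, and for differentiation 77.1% in scrambled cells and 74.2% in KD1.

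**Figure D1:**
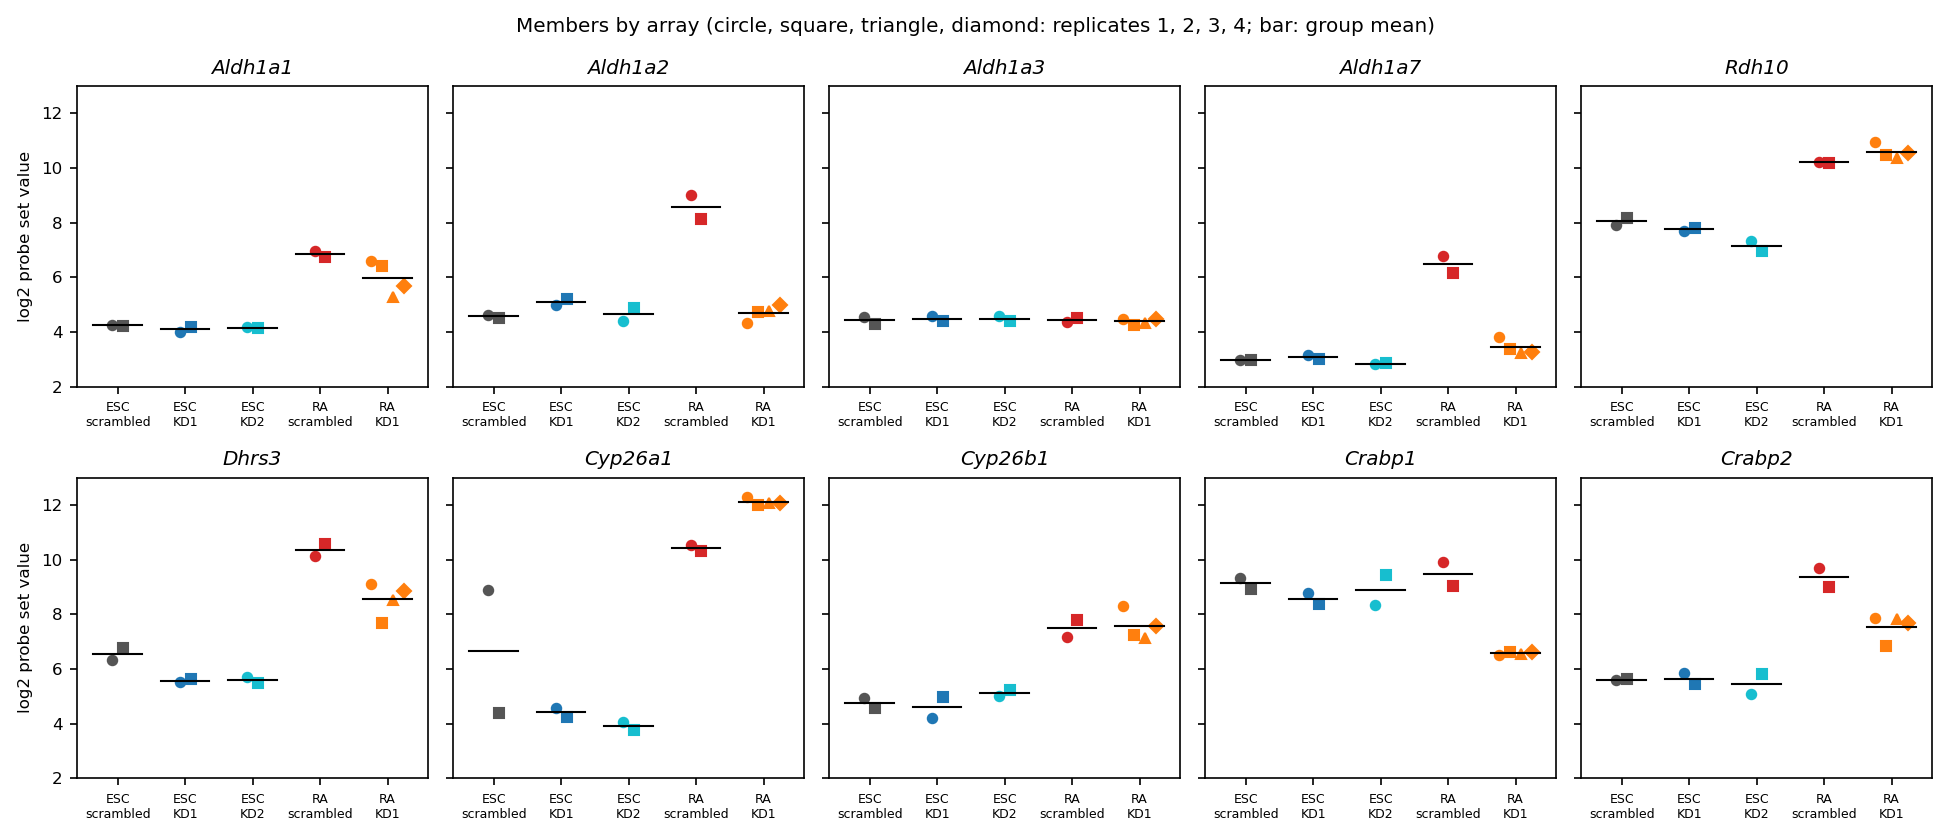
Log2 value of each of the 10 genes (one panel each, vertical axis) on every array, by group (horizontal axis), with symbols for the replicates and a bar at the group mean. Aldh1a2 and Aldh1a7 are high on the 2 scrambled arrays after retinoic acid and low on the 4 KD1 arrays, Cyp26a1 is highest on the KD1 arrays, and 1 of the 2 scrambled ESC arrays has a Cyp26a1 value of 8.90.

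Aldh1a2, which encodes the main retinal dehydrogenase of the early embryo, showed the widest contrast between the lines. Its values were 4.64 and 4.52 in scrambled ESCs and 9.01 and 8.15 in scrambled cells after retinoic acid. In KD1 they were 4.98 and 5.21 before and 4.33, 4.73, 4.77 and 4.99 after. The scrambled arrays after retinoic acid lay above every other array, and the KD1 arrays before and after overlapped. Differentiation raised Aldh1a2 by 4.00 ± 0.28 (SE) in scrambled cells (limma adjusted p = 1.8e-06) and changed it by -0.39 ± 0.25 in KD1 (adjusted p = 0.201). After retinoic acid KD1 lay 14.7-fold below scrambled (-3.88 ± 0.25, limma adjusted p = 9.12e-07). Aldh1a2 was above the brightness cutoff on 3 of 4 KD1 arrays after retinoic acid and 1 of 2 scrambled ESC arrays. These changes may therefore be understated.

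Aldh1a7, a rodent gene closely related to Aldh1a1, behaved alike on a dimmer probe set. It stood at 2.97 and 2.98 in scrambled ESCs, 3.16 and 3.03 in KD1 ESCs, and 2.82 and 2.86 in KD2 ESCs. After retinoic acid it was 6.80 and 6.17 in scrambled cells and 3.83, 3.40, 3.24 and 3.29 in KD1. All 10 arrays other than the scrambled retinoic acid pair lay below the brightness cutoff, so its folds may be understated. The rise in scrambled cells was 3.51 ± 0.23 (limma adjusted p = 1.1e-06) and the change in KD1 0.35 ± 0.20 (adjusted p = 0.17, or 0.62 with adjusted p = 0.0379 after each array was centred on its median). KD1 was lower after retinoic acid by 3.04 ± 0.20 (adjusted p = 1.33e-06).

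Aldh1a1, a retinal dehydrogenase gene like Aldh1a2, rose in both lines. From 4.25 and 4.24 in scrambled ESCs it went to 6.98 and 6.74, and from 4.01 and 4.19 in KD1 ESCs to 6.59, 6.41, 5.28 and 5.69. All 6 ESC arrays lay below the brightness cutoff, so the rises may be understated. The 4 KD1 arrays fell into 2 pairs: replicates 1 and 2 averaged 6.50, and replicates 3 and 4 averaged 5.49. This gap of 1.02 compares with a median gap of 0.14 over all genes tested and was at most 0.41 for the other members. The rise was 2.61 ± 0.34 in scrambled cells (limma adjusted p = 0.000127) and 1.89 ± 0.30 in KD1 (adjusted p = 0.000274). KD1 minus scrambled after retinoic acid was -0.86 ± 0.30 (adjusted p = 0.0581), with all KD1 arrays below both scrambled arrays. It was -0.36 (adjusted p = 0.222) without KD1 replicates 3 and 4 and -1.37 (adjusted p = 0.00118) without replicates 1 and 2. The difference passed the threshold in several other fits: adjusted p = 0.0433 without either or both of the KD2 arrays, 0.0138 with array weights, 0.0176 without KD1 replicate 1 and 0.043 without KD1 replicate 2. Whether probes of Aldh1a1 and Aldh1a7 take up each other's RNA was not tested.

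Aldh1a3, the remaining retinal dehydrogenase gene, lay between 4.27 and 4.59 on all 12 arrays and above the cutoff on 0 of them. No fold is given for it.

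Rdh10, the gene for the main retinol oxidising enzyme of the embryo, stood at 7.93 and 8.16 in scrambled ESCs and 7.70 and 7.81 in KD1 ESCs. It reached 10.21 and 10.20 in scrambled cells and 10.94, 10.48, 10.38 and 10.54 in KD1 after retinoic acid. Every retinoic acid array lay above every ESC array. The rise was 2.16 ± 0.20 in scrambled cells (limma adjusted p = 1.18e-05) and 2.84 ± 0.18 in KD1 (adjusted p = 2.65e-07). The KD1 arrays lay above the scrambled pair after retinoic acid, by 0.38 ± 0.18 (95% interval -0.0032 to 0.76, adjusted p = 0.154).

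Dhrs3, whose product turns retinal back into retinol, rose steeply in both lines and was lower in KD1 after retinoic acid. Its values were 6.33 and 6.76 in scrambled ESCs, 10.13 and 10.56 in scrambled cells after retinoic acid, 5.51 and 5.63 in KD1 ESCs, and 9.11, 7.69, 8.52 and 8.87 in KD1 after retinoic acid. The KD1 arrays lay below the scrambled arrays at both stages, with no overlap. Differentiation raised it by 3.80 ± 0.37 in scrambled cells (limma adjusted p = 1.47e-05) and 2.97 ± 0.32 in KD1 (adjusted p = 1.54e-05). After retinoic acid KD1 was 3.48-fold lower (-1.80 ± 0.32, adjusted p = 0.00172).

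Cyp26a1, which encodes the enzyme that clears retinoic acid and is itself induced by it, was bright on every array after treatment, at 10.54 and 10.32 in scrambled cells and 12.27, 12.0025, 12.05 and 12.07 in KD1. Every KD1 array was above both scrambled arrays. In undifferentiated cells it stood at 4.57 and 4.26 in KD1, 4.07 and 3.77 in KD2, and 8.90 and 4.39 in scrambled cells. The scrambled pair thus differed by 4.51, the widest gap between these 2 arrays among the 12988 genes tested, of which 9 differed by more than 2. The mean of 10 other retinoic acid target genes was 4.84 and 4.91 on the same 2 arrays, and that of the endoderm markers 5.13 and 4.98. Krt19, a keratin gene picked below for its correlation with Cyp26a1 over all arrays, also stood at 8.22 and 5.49. Stra6, which encodes a retinol uptake receptor, stood at 5.57 and 4.52.

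The fit shares 1 spread over all groups, so the gap between the scrambled ESC arrays widens the error of every Cyp26a1 change. The rise was 7.68 ± 0.83 in KD1 (limma adjusted p = 1.58e-05), from ESC arrays of which 0 of 2 lay above the brightness cutoff, so its size may be understated. In scrambled cells it was 3.79 ± 0.95 (adjusted p = 0.00817), but 6.04 without scrambled ESC replicate 1, 1.53 without replicate 2, and 3.68 with adjusted p = 0.0501 without scrambled retinoic acid replicate 1. KD1 minus scrambled after retinoic acid was 1.66 ± 0.83 (adjusted p = 0.187). The same difference had adjusted p = 5.09e-05 when either scrambled ESC array was left out and 2.11e-05 when only the 6 arrays compared were fitted.

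Cyp26b1, the gene for a related degrading enzyme, rose to like values in both lines. Scrambled cells went from 4.93 and 4.57 to 7.17 and 7.79, and KD1 cells from 4.22 and 4.98 to 8.29, 7.23, 7.15 and 7.58. The treated arrays of both lines overlapped and lay above all ESC arrays. The rise was 2.73 ± 0.37 in scrambled cells (limma adjusted p = 0.000151) and 2.96 ± 0.32 in KD1 (adjusted p = 1.61e-05). The difference between the lines after retinoic acid was 0.08 with a 95% interval from -0.62 to 0.78. Cyp26c1, the third family member and a direct neighbour of Cyp26a1, lay between 3.76 and 4.30 on all arrays and was not tested.

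Crabp1, which encodes a cytoplasmic retinoic acid binding protein, was bright in ESCs of every line and fell in KD1 after retinoic acid. It stood at 9.34 and 8.92 in scrambled ESCs, 8.78 and 8.36 in KD1, and 8.36 and 9.44 in KD2. Scrambled cells after retinoic acid had 9.92 and 9.04, and the 4 KD1 arrays had 6.52, 6.62, 6.55 and 6.63. The KD1 arrays after retinoic acid lay below all other arrays, and the scrambled pairs before and after overlapped. The change was 0.35 ± 0.34 in scrambled cells (limma adjusted p = 0.459) and -1.99 ± 0.30 in KD1 (adjusted p = 0.000179). KD1 after retinoic acid was 7.46-fold below scrambled (-2.90 ± 0.30, adjusted p = 3.53e-05).

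Crabp2, whose product delivers the acid to the RAR receptors in the nucleus, rose in both lines and less in KD1. It stood at 5.59 and 5.62 in scrambled ESCs and 5.84 and 5.46 in KD1 ESCs. After retinoic acid it was 9.69 and 9.01 in scrambled cells and 7.85, 6.84, 7.82 and 7.68 in KD1. All KD1 arrays lay below both scrambled arrays after treatment. The rise was 3.74 ± 0.35 in scrambled cells (limma adjusted p = 1.25e-05) and 1.90 ± 0.31 in KD1 (adjusted p = 0.000317). KD1 was lower after treatment by 1.80 ± 0.31 (adjusted p = 0.00126).

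Counted over the roles, 7 of the 9 tested members changed during differentiation of KD1 cells, 6 upward and 1, Crabp1, downward, where 50.8% of all genes tested changed, 29.4% upward and 21.4% downward. The upward share of changed genes was 57.9%, or 74.9% after median centring. The median was 1.90, against 0.06 for all genes. Aldh1a1 met the brightness cutoff on retinoic acid arrays alone, so it could hardly enter the upward count without a rise. Within KD1 cells Cyp26a1 also met the cutoff on retinoic acid arrays alone. After retinoic acid 5 members were lower in KD1 than in scrambled cells and 0 were higher: Aldh1a2, Aldh1a7, Crabp1, Crabp2 and Dhrs3. Aldh1a7 was bright enough to be tested through the scrambled retinoic acid arrays alone, so it could hardly enter this count other than as lower. Of all genes tested 11.5% were lower and 11.2% higher, and the median of the members was -1.80 against -0.02. Neither degrading enzyme gene was among those 5, and the count of 0 higher would be 1, Cyp26a1, without either scrambled ESC array. At an unadjusted p under 0.05 there were 6 members. On the same arrays 8 of 9 tested endoderm markers were higher in KD1, and 4 of 6 neural, 4 of 7 mesoderm and mesothelium, and 3 of 9 fibroblast markers were lower. Their means in scrambled and KD1 cells after retinoic acid were 6.40 to 6.53 and 8.68 to 9.05 for endoderm, 5.78 to 6.05 and 4.84 to 5.09 for neural, 5.53 and 4.83 to 4.95 for mesoderm, and 7.48 to 7.86 and 6.61 to 7.08 for fibroblasts. Their part in the members' differences was not tested.

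**Figure D2:**
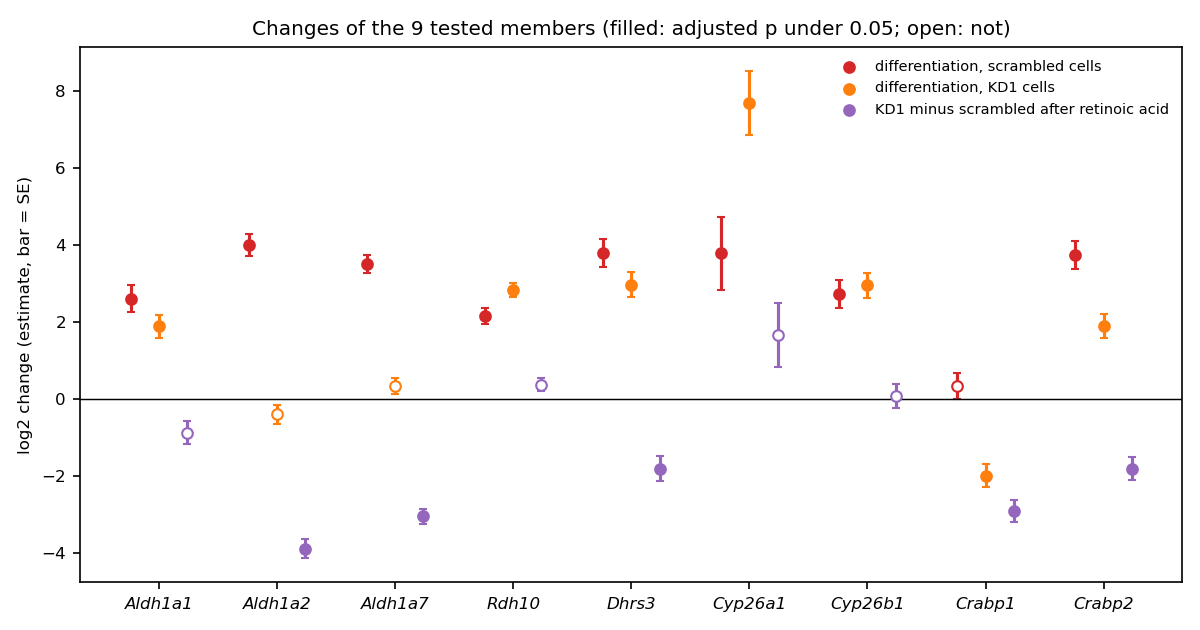
Log2 change of each of the 9 tested members (horizontal axis) with its SE, for differentiation of scrambled cells, differentiation of KD1 cells, and KD1 minus scrambled after retinoic acid; filled points had a limma adjusted p under 0.05. Aldh1a2 and Aldh1a7 changed by 4.00 and 3.51 in scrambled cells and by -0.39 and 0.35, open points, in KD1, whereas Rdh10 and Cyp26b1 rose in both.

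LIF was withdrawn when retinoic acid was added, and their effects cannot be told apart. Whether the response to both differed between the lines was tested as an interaction, the change in KD1 minus the change in scrambled cells. It was lower for 4 members, among them Aldh1a7, tested through the scrambled retinoic acid arrays alone, where 3.61% of all genes tested were lower and 7.88% differed. Of those that differed 54.2% were higher, or 64.5% after median centring. They were Aldh1a2 (-4.39 ± 0.37, limma adjusted p = 5.24e-05), Aldh1a7 (-3.16 ± 0.31, adjusted p = 0.000119), Crabp1 (-2.34 ± 0.45, adjusted p = 0.00914) and Crabp2 (-1.84 ± 0.47, adjusted p = 0.0325). The call on Crabp2 was lost in 11 of 26 alternatives, with adjusted p up to 0.152 without scrambled retinoic acid replicate 1, and that on Crabp1 without KD1 ESC replicate 1 (adjusted p = 0.0533) and with the replicate number as a block (0.0722). Dhrs3 was lower in KD1 after retinoic acid, but its interaction was -0.83 ± 0.49 (adjusted p = 0.387). Cyp26a1 gave 3.90 ± 1.26 (adjusted p = 0.0904), or 3.89 (adjusted p = 0.0252) with array weights. Its interaction was 1.64 without scrambled ESC replicate 1 and 6.15 without replicate 2. For Rdh10 the value was 0.67 ± 0.27 (adjusted p = 0.171), for Aldh1a1 -0.72 ± 0.46 (adjusted p = 0.428, but -1.23 with 0.0272 without KD1 retinoic acid replicates 1 and 2) and for Cyp26b1 0.23 ± 0.49 (adjusted p = 0.864).

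Before differentiation 0 members passed the threshold between KD1 and scrambled ESCs (limma, 2 at an unadjusted p under 0.05), where 2.32% of all genes did. Those 2 were Dhrs3, at -0.97 ± 0.37 (limma adjusted p = 0.26), and Cyp26a1, at -2.23 ± 0.95 (adjusted p = 0.345). For Dhrs3 both KD1 arrays lay below both scrambled arrays, as for 27.2% of all genes tested. The Cyp26a1 difference rested on the array at 8.90: it was 0.02 without scrambled replicate 1 and -4.49 (adjusted p = 1.68e-05) without replicate 2. The other 7 tested members differed by -0.56 to 0.52. This comparison shares its scrambled arrays with the differentiation of scrambled cells and its KD1 arrays with that of KD1.

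The 2 KD2 arrays differed by more than 1 for 2240 of the 12988 genes tested, the scrambled ESC pair for 182 and the KD1 ESC pair for 29. All groups share 1 spread in the fit, so this gap also widens the errors of the other comparisons. With both KD2 arrays left out, 8.14% of all genes tested differed between KD1 and scrambled ESCs, against 2.32% with them. In KD2 ESCs 1 member passed, Rdh10, where 10.0% of all genes did. Of those genes 28.7% were higher, or 40.5% after quantile scaling. It stood at 7.33 and 6.97 against 7.93 and 8.16, lower by 0.90 ± 0.20 (limma adjusted p = 0.0169). The array that goes against its label is the one at 7.33. The difference was -1.07 (adjusted p = 0.00339) without it and -0.72 (adjusted p = 0.026) without KD2 replicate 2. It lost the call without scrambled ESC replicate 2 (-0.78, adjusted p = 0.147), with array weights (adjusted p = 0.65) and when only the 4 arrays compared were fitted (adjusted p = 0.378). Dhrs3 stood at 5.69 and 5.48 in KD2, near its KD1 values, and differed from scrambled by -0.96 ± 0.37 (adjusted p = 0.131, but 0.0338 without KD1 retinoic acid replicate 2). Cyp26a1 differed by -2.73 ± 0.95 (adjusted p = 0.0995), by -0.47 without scrambled replicate 1 and by -4.98 (adjusted p = 5.78e-06) without replicate 2.

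Other genes of retinoid metabolism, 30 on a list of uptake, storage and oxidation genes, mostly stayed dim: 15 were bright enough to test. In scrambled cells 4 rose and 1 fell with retinoic acid, where 22.4% of all genes tested rose and 16.7% fell. In KD1 5 rose and 2 fell, against 29.4% and 21.4% of all genes. These shares of the list lie near those of all genes. Adh1, among those that rose in both lines, met the brightness cutoff on retinoic acid arrays alone. Stra6, the gene for the retinol uptake receptor, rose by 3.75 ± 0.31 in scrambled cells and 3.13 ± 0.27 in KD1 (limma adjusted p = 5.52e-06 and 3.19e-06). Between the lines after retinoic acid 1 was higher and 3 were lower, against 11.2% and 11.5% of all genes. Rbp4, which encodes the serum carrier of retinol and is a product of endoderm and liver, stood at 5.71 and 5.49 in scrambled cells and at 8.55, 9.21, 9.15 and 8.96 in KD1. That is 10.3-fold higher in KD1 (3.37 ± 0.18, adjusted p = 3.22e-07), with an interaction of 3.27 ± 0.27. Lower were Fabp5 (-2.19 ± 0.27), another carrier of retinoic acid, Adh1 (-1.73 ± 0.19), an alcohol dehydrogenase that can oxidise retinol, and the lipase gene Lpl (-0.93 ± 0.23). Fabp5 had 2 probe sets, of which the brighter was used, and values of the other are not reported here.

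**Figure D3:**
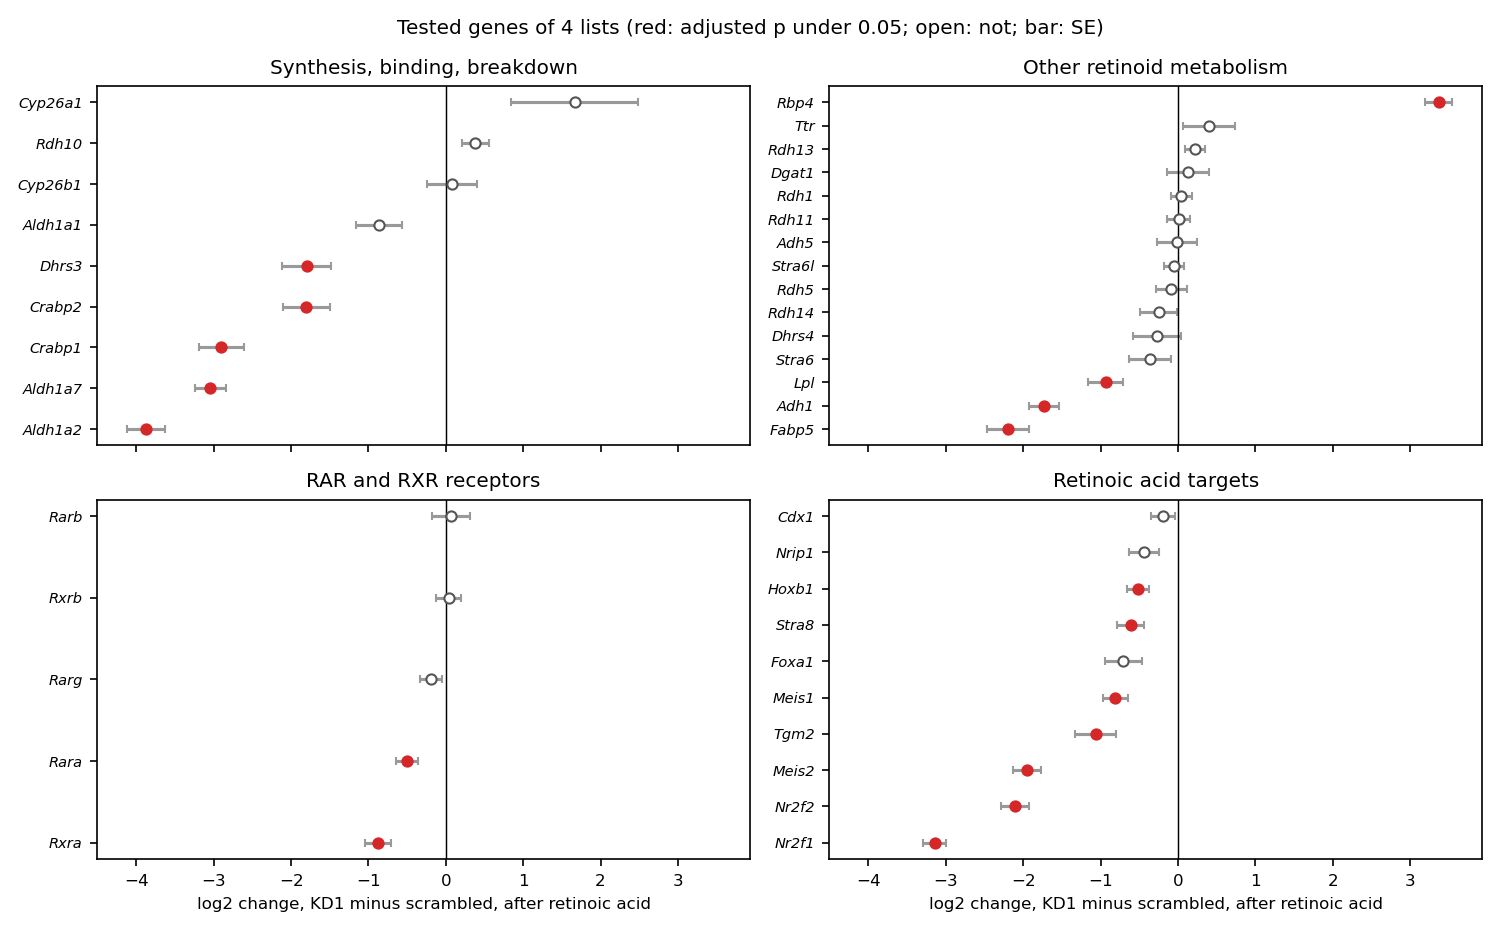
Log2 change, KD1 minus scrambled after retinoic acid (horizontal axis, bar: SE), of the tested genes of 4 lists, sorted within each panel; red points had a limma adjusted p under 0.05. Of the 9 tested members 5 were lower, of the 10 tested targets 7 were lower, and Rbp4 was higher by 3.37.

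Of the 6 receptor genes 5 were tested. Rarb, a receptor gene that the acid induces, rose by 4.57 ± 0.28 in scrambled cells and 4.95 ± 0.25 in KD1 (limma adjusted p = 7.35e-07 and 7.32e-08), and its values after treatment overlapped between the lines: 8.75 and 9.18 against 8.55 to 9.38. Rxra was lower in KD1 after treatment by 0.88 ± 0.17 (adjusted p = 0.00273) and Rara by 0.50 ± 0.14 (adjusted p = 0.0217). Rxra, the gene for a shared partner of the RAR receptors, stood at 6.36 and 6.62 in treated scrambled cells and 5.51 to 5.70 in treated KD1 cells. Of 10 tested retinoic acid target genes 9 rose in scrambled cells and 8 in KD1, against 22.4% and 29.4% of all genes tested. Nr2f1 and Meis2, counted in both, met the brightness cutoff on retinoic acid arrays alone. Nr2f2 and Foxa1, also counted in both, met it on 7 arrays each, among them all retinoic acid arrays, so on too few ESC arrays for the filter. All of these genes could hardly have been tested without a rise. After treatment 7 of the 10 targets were lower in KD1 and 0 higher, against 11.5% and 11.2% of all genes. The nuclear receptor gene Nr2f1 was the furthest, 7.98 and 8.11 in scrambled cells and at most 5.13 in KD1 (-3.14 ± 0.15, adjusted p = 2.19e-07). Nr2f2 followed at -2.11 ± 0.18, then the homeobox gene Meis2 at -1.95 ± 0.18 and the transglutaminase gene Tgm2 at -1.06 ± 0.26.

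The members did not share 1 pattern. Over the 12 arrays Pearson's r was 0.96 between Aldh1a2 and Aldh1a7 and 0.94 between Rdh10 and Cyp26a1, but 0.24 between Aldh1a2 and Cyp26a1 and -0.58 between Cyp26a1 and Crabp1. These describe 12 arrays that fall into 5 groups and carry no test. The genes named next were picked by correlation over the same arrays, so patterns they share with a member follow from that choice. Among 4494 genes with a standard deviation of at least 0.5, the genes most like Aldh1a2 were Tmem132c (r = 0.99), the transcription factor gene Tfap2b and Spsb4, both 0.98. For Aldh1a7 they were the matrix gene Hapln1, B130016D09Rik and the homeobox gene Hoxd4 (0.99 each). Aldh1a1 was closest to Prr5l, Zim1 and Rasgrp3 (0.99 each); Prr5l repeats its split among the KD1 arrays, at 6.52, 6.31, 5.05 and 5.38. Rdh10 was closest to Adcy6, Adgra2 and Clcn5 (0.99 each), and Dhrs3 to Gria3, Slc4a4 and Fbn2 (0.99 each).

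Cyp26a1 was closest to the keratin genes Krt8 and Krt19 (r = 0.98 each) and to Pam (0.97), an enzyme gene of peptide maturation. Krt8 stood at 9.35 and 8.10 in scrambled ESCs, so the array that was high for Cyp26a1 was also the higher one for Krt8, and for Krt19 and Pam as well. These genes were picked by correlation over the same arrays, so this likeness follows from the choice. Cyp26b1 was closest to Cdkn2a (0.99), Zfp282 (0.98) and Rarb (0.98). For Crabp1 they were the cholesterol synthesis gene Idi1 (0.98), 2610318N02Rik (0.98) and Cdca7 (0.97), each lowest on the 4 KD1 arrays after retinoic acid. Crabp2 was closest to Gnb5 (0.98), Tshz1 and Fbn2 (0.97 each).

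**Figure D4:**
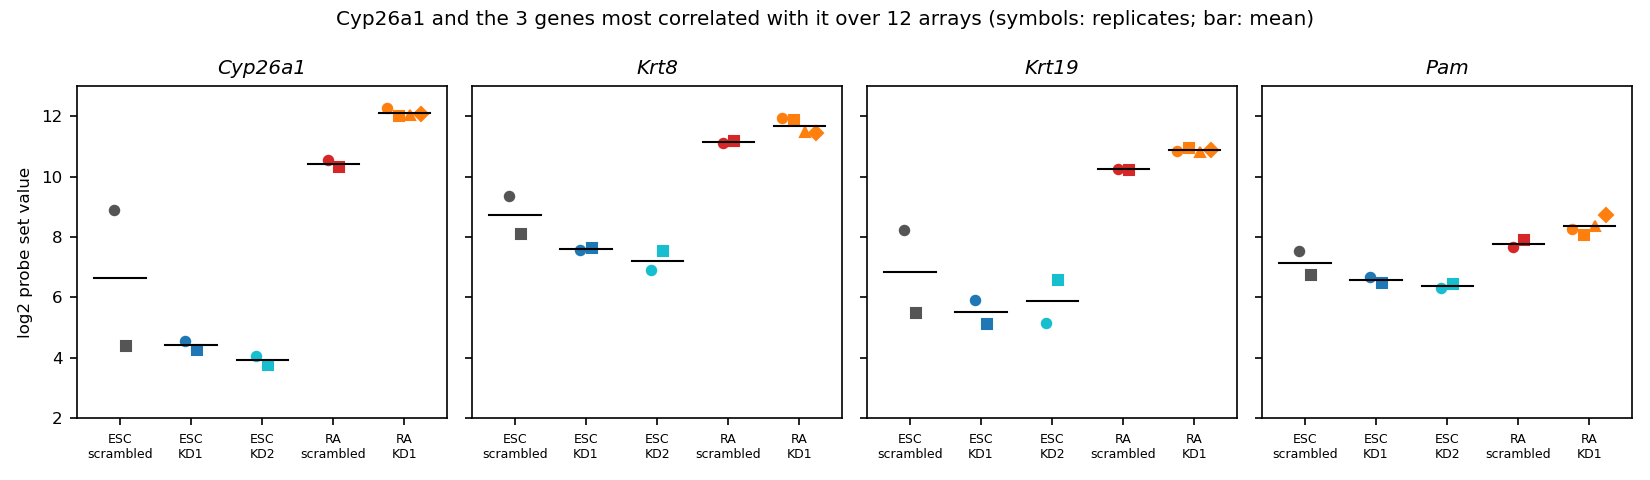
Log2 value (vertical axis) of Cyp26a1 and of the 3 genes most correlated with it, on every array by group (horizontal axis), with symbols for the replicates and a bar at the group mean. Scrambled ESC replicate 1 is above replicate 2 in all 4 panels, by 4.51 for Cyp26a1 and 2.73 for Krt19. The 4 KD1 arrays after retinoic acid are above the scrambled pair. The 3 genes were picked by correlation over these same arrays, so the shared pattern follows from the choice.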

How the data were processed

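The submitters deposited log2 probe set values, and the submitters' processing notes name RMA; which version and settings were used is not stated in the labels. The members and all gene lists were chosen with earlier results of these data known. Of 35556 probe sets 21789 had 1 gene symbol in the platform's annotation, 1621 had several and 12146 were not listed there; this gave 19938 genes, each taken from its probe set with the highest mean. The filter kept genes brighter than percentile 40 of all named genes, array by array, on 2 or more arrays (12988). With limma 3.58.1 (R 4.3.3) a model of group means was fitted to the 12 arrays together, with 6 two-sided contrasts, each adjusted over all genes tested by Benjamini-Hochberg and called at 0.05. No further scaling was applied; array medians spanned 4.73 to 5.09. Precision is limited by the number of arrays. All 10 members are named, with the 3 genes most correlated with each and up to 4 called genes of each other list. Some genes of those lists and of the markers are not reported here. Alternatives covered the filter, scaling, several probe sets, variance model, threshold, replicate block, arrays fitted and leaving out each array. Promoters were searched with Python 3.11.15 and aligned with Biopython 1.88. Other tables and plots used pandas 2.3.3, numpy 2.4.6 and matplotlib 3.10.9.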

Additional observations from a re-analysis of the deposited data

Results flagged for a closer look

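Crabp2 on KD1 replicate 2 after retinoic acid, at 6.84, stood apart from the other 3 arrays of its group, which lay between 7.68 and 7.85; the gap was 0.837 of the group's range, above Dixon's critical value at this group size. Among the 10 members this was the single such array, and chance alone marks about 1 in 20 groups. The response to LIF withdrawal with retinoic acid differed between the lines for 4 members, by the interaction term of limma. They were Aldh1a2 (-4.39), Aldh1a7 (-3.16), Crabp1 (-2.34) and Crabp2 (-1.84), each lower in KD1.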

How the results depend on the processing

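Over 54 member changes and their alternatives, 1389 values in all, 1334 kept direction and side of the threshold, 20 lost the call, 19 gained it and 16 changed sign. The numbers of members that changed were 7 to 8 for differentiation of scrambled cells and of KD1 cells, and 4 to 6 for KD1 against scrambled after retinoic acid. The interaction count of 4 ran from 2 to 5 over the alternatives, with 2 for the replicate block. In KD1 ESCs it was 0 to 1 when 1 array was left out. In KD2 ESCs the count of 1 became 0 at adjusted p under 0.01, with array weights, with cyclic loess, with only the arrays compared and with the replicate block, and 2 without retinoic acid KD1 replicates 1 and 2; leaving out 1 array gave 1 to 2. The replicate block also ended the calls on Crabp1 and Crabp2 in the interaction (adjusted p = 0.0722 and 0.0813) and on Rdh10 in KD2 (0.0537). The titles do not say whether replicate numbers pair these samples. Differences between replicates 1 and 2 correlated at -0.06 to 0.24 between groups compared, highest for scrambled and KD1 ESCs. With 1 such difference per group, this cannot show whether same-numbered samples were handled together.

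Sign changes were among small, uncalled differences or rested on 1 array, and their cause was not tested. Leaving out 1 array at a time gave -0.16 to 0.30 for Aldh1a2, -0.78 to 0.31 for Crabp1 and -0.51 to 0.21 for Crabp2 in KD2 ESCs. For KD1 ESCs it gave -0.15 to 0.23 for Crabp2, -4.49 to 0.0243 for Cyp26a1 and -0.53 to 0.23 for Cyp26b1. Differentiation of scrambled cells gave -0.0894 to 0.79 for Crabp1. Cyp26b1 gave -0.22 to 0.39 for KD1 against scrambled after retinoic acid, with -0.11 without KD1 replicates 1 and 2, and -0.15 to 0.61 for the interaction. Crabp2 in KD1 ESCs was -0.0193 after median centring and -0.0043 after quantile scaling. Median centring moved the median change of all genes in differentiation from 0.06 to 0.24 in scrambled cells and to 0.33 in KD1, less than the called changes of the members. The share of all genes tested that changed ran from 25.7% to 54.5% for differentiation of scrambled cells, 34.0% to 66.3% for that of KD1, 11.7% to 38.4% for KD1 after retinoic acid, 0.2% to 8.84% for KD1 ESCs, 0% to 34.4% for KD2 ESCs and 3.08% to 19.6% for the interaction. Dim probe sets limit what can be read: Aldh1a3 on all arrays, Aldh1a7 outside the scrambled retinoic acid arrays, Aldh1a1 in all ESCs and Cyp26a1 in KD1 and KD2 ESCs lay below the cutoff. Aldh1a2 also lay below it on some arrays outside the scrambled retinoic acid pair.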
